A study of Mus musculus with 18 samples.

Results

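The naive dorsal root ganglion arrays compared mice carrying floxed Trpa1 and a keratinocyte Cre with controls carrying the Cre alone, and were the 6 of the 18 arrays of the series that the labels place in this tissue. There were 3 mutant and 3 control arrays, each labelled as a biological replicate. Both genotypes carried K14Cre, in which the promoter of keratin 14, a gene of basal keratinocytes, drives Cre recombinase. The study looked for Cre activity in the ganglion and saw none. Mutants were K14Cre-Trpa1 fl/fl, in which the exons coding for the channel pore are flanked by loxP sites, and controls, called wild type in the labels, were K14Cre-Trpa1+/+. The animals were untreated adult males of at least 7 weeks on a mixed C57BL/6, CBA and Swiss Webster background that had been crossed onto C57BL/6. The genotypes were kept as separate colonies for many generations, so that Trpa1 genotype and colony cannot be told apart in these arrays. Ganglia of lumbar segments 1 to 6 were taken, and 100 ng of RNA was hybridised to Mouse Gene 1.0 ST arrays. The remaining arrays were of epidermis, either naive or after complete Freund's adjuvant (CFA), an inflammatory agent.

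The dorsal root ganglion (DRG) contains the somata of the neurons that carry sensation from skin, muscle and viscera, together with satellite glia, Schwann cells, macrophages, fibroblasts and vessels. Its neurons are grouped into peptidergic and non-peptidergic nociceptors, C-fibre low-threshold mechanoreceptors and large myelinated neurons. Trpa1, a cation channel opened by reactive irritants, is made by some of the nociceptors. In whole ganglia, fewer cells of a type and less RNA per cell cannot be told apart.

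Values are RMA signals on the log2 scale, and differences are mutant minus control. The tissue label matched the markers of sensory neurons: advillin (Avil) lay between 10.86 and 11.12, peripherin (Prph) between 11.25 and 11.49, and the transcription factor Isl1 between 9.71 and 10.03 on the 6 arrays. All 15 measured pan-sensory genes were above background on every array. Background was set on each array as the 95th percentile of 1206 probe sets of olfactory, vomeronasal and trace amine-associated receptors, and lay between 5.78 and 5.93. Of 19 keratinocyte markers, 10 were above background on all 6 arrays and 5 on none. Their mean signal was 5.85, 5.96 and 6.13 in the controls and 6.46, 5.92 and 5.95 in the mutants. Keratin 10 (Krt10) read 6.39, 6.40 and 7.42 in the controls and 8.20, 6.73 and 6.69 in the mutants, and was highest in mutant replicate 1 and control replicate 3. Keratin 14 (Krt14) stayed between 5.68 and 6.20.

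Control replicate 1 stood apart from its group. Over all probe sets its correlation with control replicates 2 and 3 was 0.9938 and 0.9943, below its correlation with each mutant array, which ran from 0.9955 to 0.9961. It differed by at least 2-fold from the mean of the other two controls at 18 probe sets, of which 17 were lower and 14 were nearer to the mutant mean than to that of the other controls. At 2 of the 18 it lay within the range of the mutants. Of the 18, 8 were paired with exactly 1 gene and the others with several, where probe sets that share genes count separately. By the number of such probe sets it was not extreme, since control replicates 2 and 3 had 22 and 16 and the mutants 36, 9 and 12 against the rest of their own group.

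The targeted gene was read first. Trpa1 was 8.99, 8.89 and 9.08 in the controls and 8.84, 8.44 and 8.54 in the mutants, a difference of -0.38 ± 0.11 (SE, n = 3 per genotype, limma adjusted p = 0.48). The groups did not overlap, and the difference did not pass the test. No source used here says whether the probe set covers the deleted exons, so that its signal does not check the genotype.

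Few genes separated the ganglia of the genotypes. Among 23410 probe sets paired with at least 1 gene, 6 were higher in mutant ganglia (0.0256% of those tested) and 11 were lower (0.047%), 17 in all (0.0726%), in limma's moderated test with a Benjamini-Hochberg adjusted p under 0.05. Differences were within 1.5-fold at 99.5% of the probe sets, and their median was 0.0012. An unadjusted p under 0.05 was reached by 1673 probe sets (7.15%), of which 839 (3.58%) had higher and 834 (3.56%) lower signals in the mutants. The groups did not overlap at 2760 probe sets (11.8%). Among all probe sets tested, 25 (0.107%) combined a difference of 2-fold or more with an unadjusted p under 0.05, 6 with higher and 19 with lower signals. Without control replicate 1, 140 probe sets were called higher and 63 lower. The 17 calls held 12 probe sets paired with exactly 1 gene, which name 11 genes, and 5 paired with several genes.

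**Figure D1:**
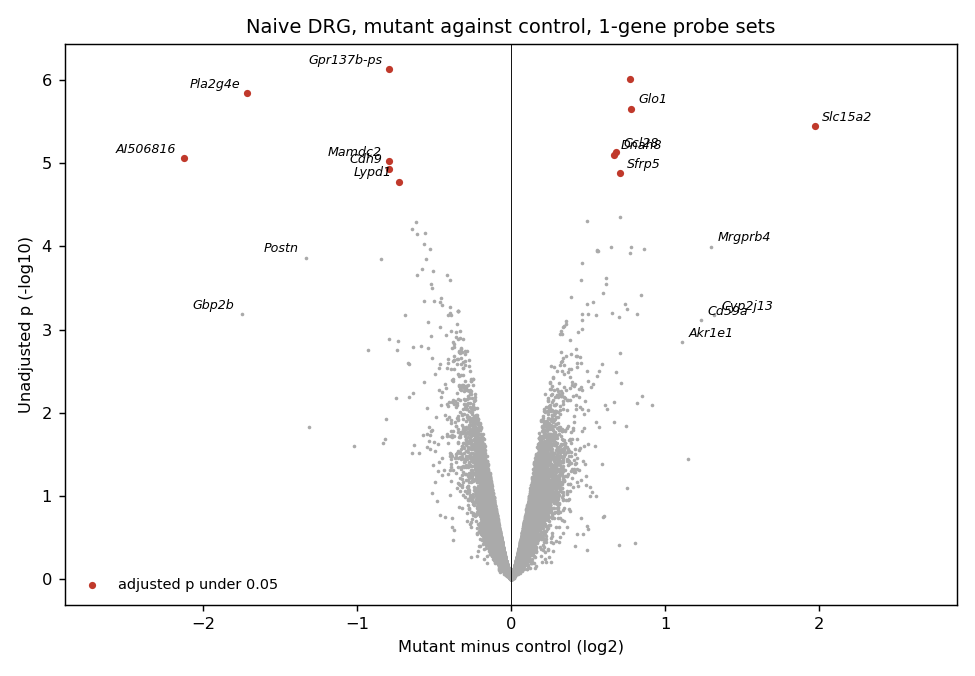
Each point is a probe set paired with exactly 1 gene, placed by its difference between mutant and control ganglia (x axis, log2) and its unadjusted limma p (y axis, -log10). Red points passed the adjusted threshold and lie on both sides of 0. Postn, Gbp2b, Mrgprb4, Cyp2j13, Cd59a and Akr1e1 differed by at least 2-fold and did not pass.

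The named genes that were higher in the mutant ganglia were Slc15a2, Glo1, Sfrp5, Ccl28 and Dnah8. Slc15a2, a proton-coupled transporter of small peptides, read 5.72, 5.76 and 6.49 in the controls and 7.78, 8.03 and 8.07 in the mutants. All mutant arrays lay above all controls, and 1 of the 3 controls was above background. The difference was 1.97 ± 0.19 (adjusted p = 0.0093). Glo1, the glyoxalase that clears methylglyoxal, was read by a pair of probe sets with little spread. The brighter lay between 9.98 and 10.05 in the controls and at 10.80, 10.76 and 10.79 in the mutants, a difference of 0.77 ± 0.06 (adjusted p = 0.0038). The other gave 0.78 ± 0.07 (adjusted p = 0.0065). Sfrp5, a secreted inhibitor of Wnt ligands, was 8.47, 8.46 and 8.59 in the controls and 9.10, 9.32 and 9.23 in the mutants. The difference was 0.71 ± 0.08 (adjusted p = 0.021). Ccl28, a chemokine best known from mucosal epithelia, was not above background in any control (5.42, 5.40 and 5.49). It lay at 6.14, 6.19 and 6.03 in the mutants, at least 1.18-fold higher (adjusted p = 0.017). Dnah8, a heavy chain of axonemal dynein, likewise moved from 5.51, 5.58 and 5.51 to 6.14, 6.29 and 6.17, at least 1.25-fold higher (adjusted p = 0.017). These bounds compare the mutant mean with the background level of the control arrays.

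Genes that were lower in the mutant ganglia included a phospholipase, adhesion molecules and a pseudogene. Pla2g4e, an enzyme of the cytosolic phospholipase A2 family that makes precursors of N-acylethanolamine lipids, read 7.93, 7.69 and 7.37 in the controls and 6.01, 6.11 and 5.73 in the mutants. It was above background on 2 of 3 mutant arrays, and the difference was -1.72 ± 0.15 (adjusted p = 0.0048). The uncharacterised transcript AI506816 was 6.79, 6.90 and 6.87 in the controls and 4.67, 5.32 and 4.19 in the mutants, where it was not above background on any array, so that it was at least 2.01-fold lower (adjusted p = 0.017). Cdh9, a classical type II cadherin and one of the markers listed for C-fibre low-threshold mechanoreceptors, was 7.90, 7.69 and 7.83 in the controls and 6.88, 7.13 and 7.04 in the mutants. Mamdc2, a secreted protein with MAM domains, was 7.99, 8.08 and 7.82 against 7.25, 7.17 and 7.09. Lypd1, a Ly6-type protein that modulates nicotinic receptors, was 7.94, 8.13 and 7.95 against 7.40, 7.24 and 7.19. The groups did not overlap for any of these genes, and the differences were -0.79 ± 0.09, -0.79 ± 0.09 and -0.73 ± 0.09 for Cdh9, Mamdc2 and Lypd1 (adjusted p = 0.020, 0.017 and 0.025). Gpr137b-ps, a pseudogene of the lysosomal membrane protein gene Gpr137b, had the least spread among the lower genes, with 8.19, 8.16 and 8.21 in the controls and 7.36, 7.41 and 7.42 in the mutants (-0.79 ± 0.06, adjusted p = 0.0035). Signals of near-identical copies cannot be separated with certainty on an array, which touches this pair.

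**Figure D2:**
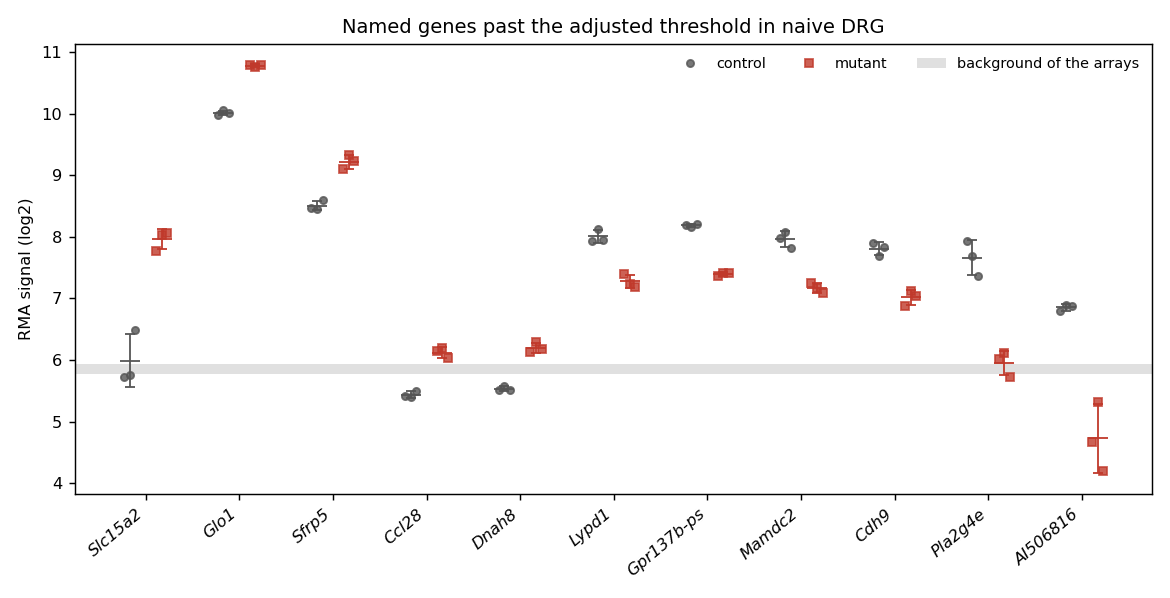
Signal (RMA, log2) of the 11 named genes that passed the adjusted threshold, with each array as a point, the mean as a bar and the SD as whiskers, for 3 control and 3 mutant ganglia. The genotypes do not overlap in any of the genes, and Ccl28 and Dnah8 in controls and AI506816 in mutants lie under the grey band, the background of the 6 arrays.

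The calls were not equally firm, and their order depended on the setting. Both Glo1 probe sets, Gpr137b-ps and Pla2g4e passed when any 1 of the 6 arrays was left out, with largest adjusted p of 0.047, 0.033, 0.029 and 0.039. Slc15a2 did not pass without control replicate 2 or mutant replicate 2 (largest adjusted p = 0.055). For AI506816 the call was lost without either control replicate 2 or 3, or without mutant replicate 1 (largest 0.114), and Mamdc2 lost it without control replicate 2 and without either mutant replicate 2 or 3 (largest 0.103). Sfrp5, Dnah8 and Lypd1 did not pass without control replicate 2 or 3 or mutant replicate 2 or 3 (largest 0.124, 0.101 and 0.169). Ccl28 did not pass without control replicate 2 or 3 or mutant replicate 1 or 2 (largest 0.0987), and Cdh9 passed only without control replicate 1 (largest 0.125 otherwise). With control replicate 3 and mutant replicate 1 both left out, Slc15a2 alone of the called genes passed (limma adjusted p = 0.0016). There the Glo1 probe sets gave 0.15 and 0.13 and Gpr137b-ps 0.11, and Pla2g4e did not pass either. Adjusted over all 35556 probe sets, Gpr137b-ps and the brighter Glo1 probe set passed (both 0.034). The other Glo1 probe set (0.072) and Slc15a2 (0.10) did not.

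The 5 called probe sets paired with several genes name no gene, and all were lower in the mutants. One, paired with 2 genes, read 8.62, 8.41 and 8.48 in the controls and 7.18, 7.31 and 7.37 in the mutants. A group of 3 probe sets shared 5 genes and differed by -1.16 to -1.27, and a pair of them had identical values. The last, paired with 11 genes, differed by -0.80. A further 9 probe sets of 6 or 7 genes differed by -2.25 to -2.72 and did not pass (adjusted p 0.071 to 0.16). For these, control replicate 1 read between 7.55 and 7.93, control replicates 2 and 3 between 9.20 and 10.02, and the mutants between 6.12 and 6.84, so control replicate 1 lay between the other controls and the mutants.

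Several genes differed by 2-fold or more without passing. Gbp2b, an interferon-induced guanylate-binding GTPase, was 6.99, 7.91 and 7.66 in the controls and 5.46, 5.28 and 6.58 in the mutants, a difference of -1.75 ± 0.34 (adjusted p = 0.16), with 1 of the 3 mutants above background. Postn, the matrix protein periostin, was 9.49, 9.65 and 9.67 against 7.70, 8.50 and 8.61 (-1.33 ± 0.21, adjusted p = 0.078). Mrgprb4, a receptor of a small set of C fibres in hairy skin, was 8.14, 7.35 and 7.65 against 9.19, 9.10 and 8.74 (1.30 ± 0.19, adjusted p = 0.071). Cyp2j13, a cytochrome P450 of the arachidonate epoxygenase family, was 6.29, 5.70 and 6.17 against 8.01, 7.05 and 7.07. Cd59a, which blocks the complement membrane attack complex, was 9.43, 9.38 and 10.44 against 10.95, 11.01 and 10.98, with control replicate 3 closest to the mutants. Akr1e1, an aldo-keto reductase, was 7.46, 6.36 and 6.85 against 7.96, 8.25 and 7.79. The genotypes did not overlap for any of these 6 genes. Several calls appeared when 1 array was left out: Gbp2b without mutant replicate 3 (adjusted p = 0.041), where neither mutant array left was above background and the fall was at least 3.19-fold, Postn without mutant replicate 1 (-1.05, 0.012), Cd59a without control replicate 3 (1.58, 0.00088), and Mrgprb4 and Akr1e1 without control replicate 1 (1.51, 0.012 and 1.39, 0.025). The genotypes did overlap for the carbonic anhydrase gene Car3 (6.54, 7.11 and 7.21 against 6.82, 8.68 and 8.81) and for the small nuclear RNA gene Scarna13 (up to 10.48 in the controls against 8.53, 8.27 and 10.21). They also overlapped for the cohesin acetyltransferase gene Esco1, which had 2 probe sets. The dimmer read 7.10, 8.73 and 8.76 against 7.15, 7.14 and 7.24, with control replicate 1 below all mutants and the other controls above them. The brighter read 7.53, 8.44 and 8.56 against 7.59, 7.46 and 7.59. Its difference was -0.63, under 2-fold, and control replicate 1 lay within the range of the mutants. Car3 passed without mutant replicate 1 (1.79, adjusted p = 0.021), Scarna13 without mutant replicate 3 (-1.92, 0.017), and the dimmer Esco1 probe set without control replicate 1 (-1.57, 0.00010). For each gene the left-out array was given because the gene passed there, so that these passes add no independent support. With any other 1 array left out, limma's adjusted p ran from 0.10 to 0.55 for Cd59a and from 0.10 to 0.31 for Mrgprb4. It ran from 0.38 to 0.77 for Akr1e1 and from 0.43 to 0.998 for Car3.

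Genes beside the called genes on the chromosome were read in the order of the reference gene table. The groups did not overlap, in either direction, at 11.8% of all probe sets. They did not overlap at 5 of 17 neighbours of Ccl28. Around the other called genes this ran from 1 of 20 (Sfrp5) to 8 of 20 (Pla2g4e). Around Mrgprb4, which was not called, it was 6 of 20. Glo1 and Dnah8 are adjacent on chromosome 17, and the next gene, Btbd9, was 8.48, 8.09 and 8.14 in the controls and 8.69, 8.76 and 8.62 in the mutants (0.45 ± 0.11, adjusted p = 0.32). Beside Ccl28 on chromosome 13, the 3 preceding genes all had higher signals in each mutant than in each control. Tmem267, its next neighbour, was 7.46, 6.96 and 7.30 against 7.99, 8.05 and 7.99 (0.77 ± 0.12, adjusted p = 0.071). The differences were 0.33 ± 0.08 for 3110070M22Rik and 0.56 ± 0.14 for 4833420G17Rik. Gpr137b, 2 measured genes from its pseudogene, differed in the other direction, with 7.99, 8.11 and 8.06 against 8.44, 8.33 and 8.42 (0.34 ± 0.07, adjusted p = 0.19). Near Pla2g4e on chromosome 2, the membrane fusion gene Snap23 was 8.61, 8.77 and 8.76 against 8.09, 8.24 and 8.29 (-0.50 ± 0.08, adjusted p = 0.095). There 4 of 20 neighbours had an unadjusted p under 0.01, as did 1.87% of all probe sets. They went both ways, with Snap23 and Zfp106 (-0.32) lower and Tmem87a (0.30) and Haus2 (0.32) higher. The median of the neighbours was -0.01. Beside Gbp2b lay its paralogs Gbp3 (-0.64 ± 0.18) and Gbp7 (-0.49 ± 0.12). Cd59b, next to Cd59a, was not above background in any control and was at least 1.25-fold higher in the mutants (adjusted p = 0.44). None of the 20 genes around Slc15a2 reached an unadjusted p of 0.05. Around Trpa1 itself, 40 measured neighbours had a median of 0.0048, with 0 past limma's adjusted threshold. At an unadjusted p under 0.05, 1 had a higher and 5 a lower signal, beside 3.58% and 3.56% of all probe sets. The median was -0.02 without control replicate 1.

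**Figure D3:**
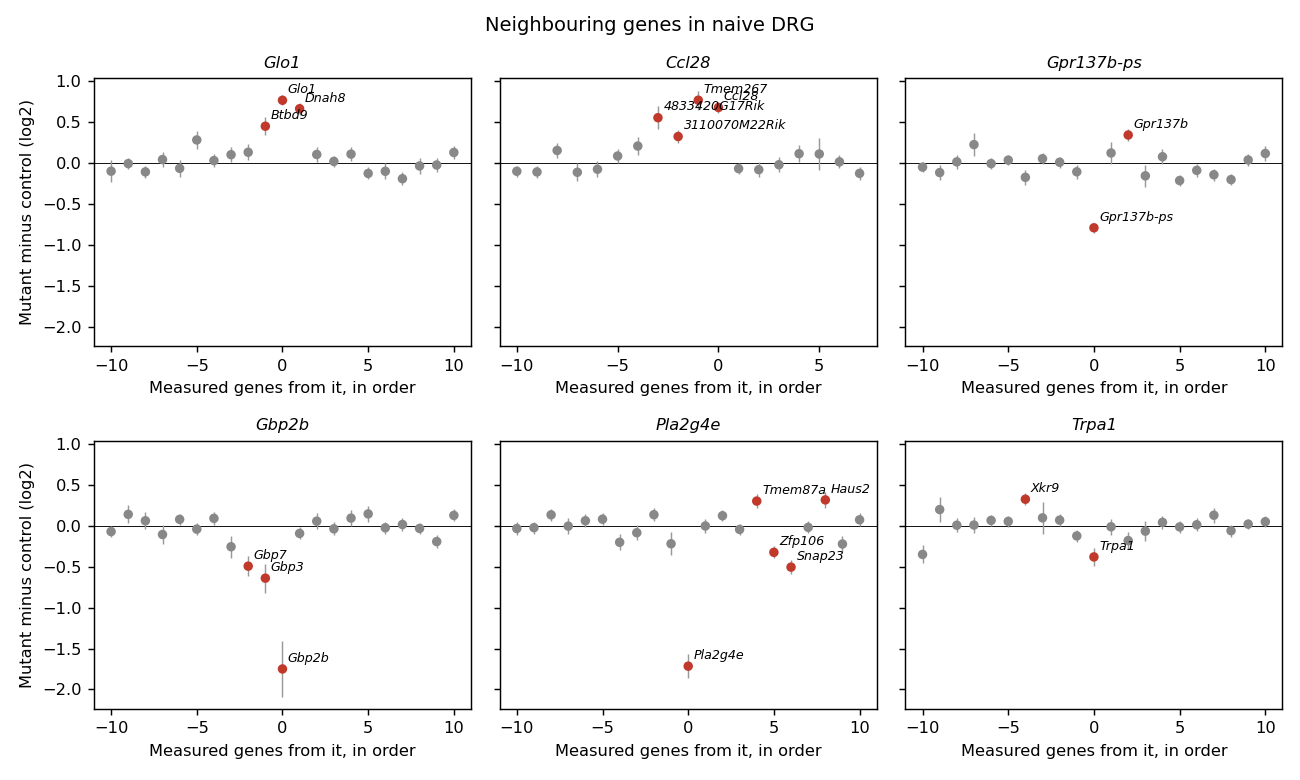
Difference between mutant and control ganglia (y axis, log2, whiskers are SE) for measured genes around 6 genes, by their place in the gene order counted from the named gene at 0 (x axis). Red points have an unadjusted p under 0.01. Glo1 and Ccl28 lie in runs of 3 and 4 such genes with higher signals, and Gpr137b-ps and Gpr137b point in opposite directions.

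Markers of the sensory neuron classes held 1 called gene, Cdh9. Over all probe sets, 3.58% had higher and 3.56% lower signals at an unadjusted p under 0.05. In the pan-sensory list 0 of 15 genes passed limma's adjusted threshold and 2 were higher at an unadjusted p under 0.05, with a median of 0.07 that was 0.16 without control replicate 1. The nociceptor sodium channel gene Scn10a was 12.02, 11.76 and 11.74 in the controls and 12.05, 11.85 and 11.84 in the mutants. Among 11 peptidergic genes 0 passed and 3 were lower at an unadjusted p under 0.05, with a list median of -0.12. These were the heat-gated channel Trpv1 (-0.37 ± 0.09) and the neuropeptide genes Tac1 (-0.28 ± 0.08) and Adcyap1 (-0.32 ± 0.08). Tac1, the precursor of substance P, read 10.69, 10.78 and 10.88 against 10.55, 10.41 and 10.55. Among 13 non-peptidergic genes 0 passed, 3 had an unadjusted p under 0.05 (Mrgprb4 and Mrgprx1 with higher signals, Mrgprb5 with a lower one), and the median was 0.14. It was 0.23 without control replicate 1. Mrgprd, which marks most of these neurons, differed by 0.04 ± 0.09. Among 8 genes of C-fibre low-threshold mechanoreceptors, Cdh9 passed, and Th, the tyrosine hydroxylase that marks these neurons, was 10.76, 10.58 and 10.82 against 10.52, 10.38 and 10.42 (-0.28 ± 0.08, adjusted p = 0.50). Among 15 genes of large myelinated neurons 0 passed and 2 were higher at an unadjusted p under 0.05 (median 0.17). The calcium-binding protein gene Calb1 was 8.35, 7.75 and 8.05 against 8.73, 8.95 and 8.72 (0.75 ± 0.14, adjusted p = 0.16). Without control replicate 1, Calb1 and Cntnap2 of this list passed and its median was 0.27.

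Ion channels and receptors held no call over the 6 arrays. At an unadjusted p under 0.05, 3.58% of all probe sets were higher and 3.56% lower. Of 17 Trp channel genes 0 passed and 3 were lower at an unadjusted p under 0.05, namely Trpv1, Trpm3 and Trpa1. Trpm3, another heat sensor of nociceptors, was 9.01 ± 0.04 in the controls and 8.69 ± 0.10 in the mutants (SD, n = 3 each). Of 22 mechanical and acid-sensing channel genes 0 passed, Tmem87a (0.30) and Lhfpl5 (-0.22) had an unadjusted p under 0.05, and the median was 0.03. The largest difference among 15 calcium channel genes was that of Cacna2d2, an auxiliary subunit of the type bound by gabapentin. It was 8.66, 8.38 and 8.51 in the controls and 9.35, 9.20 and 9.12 in the mutants (0.71 ± 0.09, adjusted p = 0.057), without overlap. Cacna2d2 passed without control replicate 1 (0.78, adjusted p = 0.022), with array weights (0.019) and with the replicate block (0.024). Among 10 sodium channel genes the beta subunit gene Scn4b was 9.08, 8.32 and 8.33 against 9.16, 9.33 and 9.11, with control replicate 1 close to the mutants. Without that array Scn4b (0.88) and Scn8a (0.73) passed, and the list's median was 0.16. The GABA-A receptor subunit gene Gabra2 was 10.27, 9.39 and 9.40 against 8.73, 8.86 and 8.68 (-0.93 ± 0.21, adjusted p = 0.28). Without control replicate 1 it passed (-0.64, adjusted p = 0.023), as did Osmr of the itch receptor list, a subunit of the oncostatin M receptor (-0.51, adjusted p = 0.039). Among 18 genes of the Mrgpr family, receptors of itch and touch neurons, 0 passed and 5 had an unadjusted p under 0.05, Mrgprb4 and 3 more with higher signals and Mrgprb5 (-0.28 ± 0.11) with a lower one.

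Interferon-stimulated and guanylate-binding genes held no call over the 6 arrays, and most had a difference below 0. Of 24 measured, 0 passed limma's adjusted threshold, 8 were lower and 0 higher at an unadjusted p under 0.05, 22 had a difference below 0, and the median was -0.25, beside 3.56% of all probe sets lower at that p and a median of 0.0012. Their mean signal was 6.77, 7.33 and 7.15 in the controls and 6.70, 6.67 and 6.81 in the mutants, so that control replicate 1 lay among the mutants. Gbp7 was 8.62, 9.15 and 8.92 against 8.34, 8.41 and 8.46. Cxcl9, a T cell chemokine, was 6.37, 7.12 and 7.32 against 6.10, 6.18 and 6.30. Without control replicate 1 the list's median was -0.41 and 5 genes passed, Cxcl9, Gbp3, Gbp4, Gbp7 and Irgm1, while without control replicate 3 and mutant replicate 1 together the median was -0.26 and 0 passed. Among 13 genes of antigen presentation 0 passed and 3 were lower at an unadjusted p under 0.05. The class II gene H2-Eb1 was 8.24, 8.62 and 8.80 against 7.60, 7.74 and 7.78 (-0.85 ± 0.13, adjusted p = 0.078). It passed without control replicate 1 (adjusted p = 0.0070), with array weights (0.019) and with the replicate block (0.022). The 14 macrophage markers had a median of -0.11, with 0 past the adjusted threshold and 1 at an unadjusted p under 0.05, and a median of -0.21 without control replicate 1. Whether immune cell content moved these genes was not tested.

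Markers of satellite glia, Schwann cells and fibroblasts had medians near 0. They were -0.01 for 10 satellite glia genes, 0.07 for 15 Schwann cell and myelin genes, and -0.02 for 18 fibroblast and matrix genes, of which Mamdc2 passed. These medians were -0.01, 0.02 and -0.16 without control replicate 1. Over the 6 arrays, differences above 0 numbered 4 for satellite glia, 14 for Schwann cell and myelin genes and 9 for fibroblast genes. Those below 0 numbered 6, 1 and 9. Fat markers had a median of 0.23 over 9 genes, with means of 5.73, 6.02 and 5.88 in the controls and 5.92, 6.17 and 6.32 in the mutants. The adipokine gene Adipoq was above background on 1 mutant array. The list of T, B and mast cell genes had a median of 0.0095 over 11 genes, with 7 differences above 0 and 4 below. Of the mast cell proteases in it, Mcpt4 was 6.16, 6.20 and 6.42 against 6.50, 7.35 and 7.07, and Cpa3 was 6.77, 7.14 and 7.22 against 7.17, 7.91 and 7.78. Both were highest in mutant replicates 2 and 3, as were Car3 and the mean of the red cell markers. Of 10 red cell markers listed, only 2 were measured, Slc4a1 and Alas2. Their median was 0.40, and their mean was 6.90, 7.18 and 7.16 against 6.86, 7.73 and 7.85. The part of fat, mast cell or red cell content in the differences above was not tested.

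**Figure D4:**
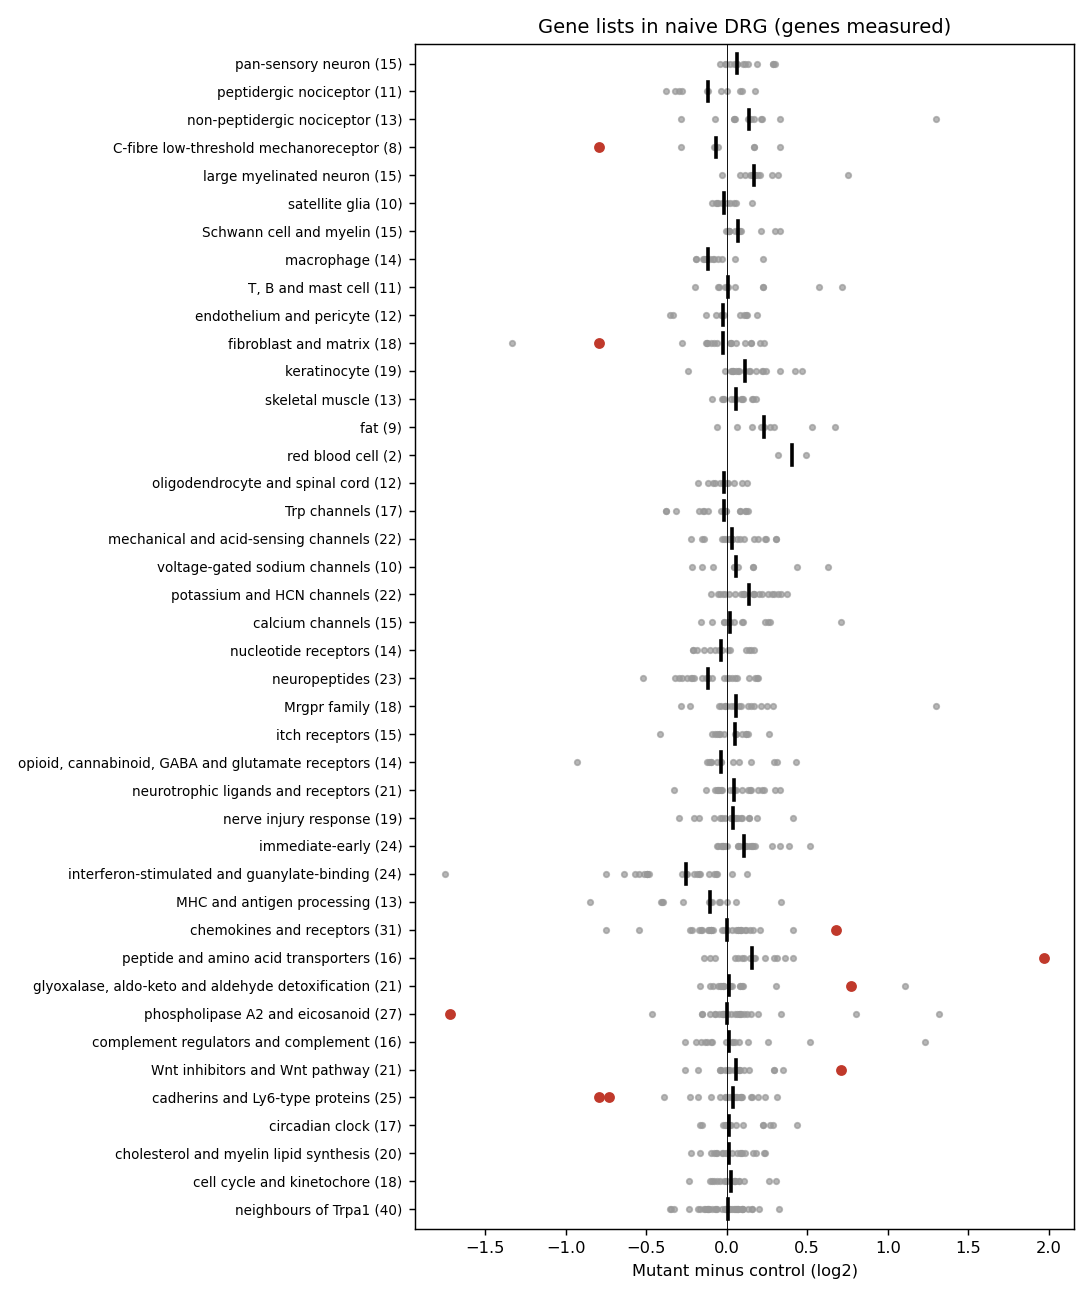
Difference between mutant and control ganglia (x axis, log2) for the measured genes of each list (rows, number of genes in brackets), with each gene as a point, the median as a black bar and genes past the adjusted threshold in red. The interferon list lies furthest left by its median (-0.25), and the neuron class lists centre between -0.12 and 0.17.

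Lists built around the families of the called genes held few further differences. Over all probe sets, 3.58% were higher at an unadjusted p under 0.05. In the Wnt list of 21 genes Sfrp5 passed, and Sfrp2 (0.29), Rspo1 (0.29) and Wnt5a (0.35) were higher at an unadjusted p under 0.05, the first a secreted inhibitor like Sfrp5, the next an enhancer and the last a ligand. Among 16 peptide and amino acid transporter genes Slc15a2 passed, and the glutamine transporter gene Slc38a1 (0.36) had an unadjusted p under 0.05. Among 27 phospholipase A2 and eicosanoid genes Pla2g4e passed and the median was 0.0025. Cdh9 and Lypd1 passed among 25 cadherin and Ly6-type genes, in which Cdh19, a cadherin of Schwann cell precursors, differed by -0.39. Glo1 passed among 21 detoxification genes, and Ccl28 among 31 chemokine and receptor genes. These lists were drawn up with the called genes known.

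Neuropeptide and potassium channel lists held no call by limma over the 6 arrays. Of 23 neuropeptide genes 5 were lower at an unadjusted p under 0.05, beside 3.56% of all probe sets, and the median was -0.12, with Cartpt, a peptide precursor, at -0.52. Of 22 potassium and HCN channel genes 17 had a difference above 0 and 3 were higher at an unadjusted p under 0.05, beside 3.58% of all probe sets. These were Kcnq3 (0.34), Kcnq5 (0.37) and Kcnk18 (0.29), which set the resting excitability of neurons, and the list's median was 0.14. Without control replicate 1, Kcnq3 (0.52, adjusted p = 0.046) and the pacemaker channel gene Hcn2 (0.51, adjusted p = 0.039) passed, and the median was 0.23.

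Genes that respond to activity or time of day were also read. Among 24 immediate-early genes 0 passed and 3 were higher at an unadjusted p under 0.05, beside 3.58% of all probe sets, with a median of 0.11. The phosphatase gene Dusp1 was 8.54 ± 0.11 in the controls and 8.92 ± 0.09 in the mutants (SD, n = 3 each), without overlap. Egr1 was 6.52, 6.56 and 6.75 against 7.85, 6.77 and 6.75, high in mutant replicate 1 alone, and Fos differed by 0.12 ± 0.10. Of 17 clock genes 0 passed and 4 were higher at an unadjusted p under 0.05, beside the same 3.58%, including Per1 at 7.82, 7.55 and 7.69 against 8.06, 8.24 and 8.06.

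The genotype difference of the called genes was set beside that in epidermis. Of the 12 probe sets, 2 of which are of Glo1, 0 were called in the same direction in naive epidermis by limma and 3 in CFA epidermis. The sign was the same for 8 in each. No share over all probe sets is given for these calls or for the sign, so the counts are not set against a general rate. Glo1 differed by 0.26 and 0.29 in naive epidermis and by 1.21 and 1.14 after CFA, where both passed. AI506816 differed by -0.41 and -1.27, and passed after CFA. Slc15a2 differed by 1.55 and 2.15 and passed in neither, although the genotypes did not overlap. Over all probe sets the genotypes did not overlap at 16.6% in naive and 14.3% in CFA epidermis. The test of DRG against naive epidermis called 13 probe sets (0.0555%). Of the genes called in DRG, Pla2g4e and Dnah8 were among them. Others had their difference in epidermis, such as Nr4a1 (0.28 in DRG and -2.17 in naive epidermis) and Adh1 (0.02 and -1.45). Pla2g4e differed by 0.22 ± 0.14 in naive epidermis, and the DRG difference minus that value was -1.93 ± 0.22 (adjusted p = 0.0063). Dnah8 differed by -0.11 ± 0.08 there (adjusted p of the difference between tissues = 0.020), and since its control signal in DRG was below background, the size of that difference is not given. Gpr137b-ps, which was lower in DRG, was -1.14 ± 0.37 in naive and 0.46 ± 0.14 in CFA epidermis, and passed in neither.

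**Figure D5:**
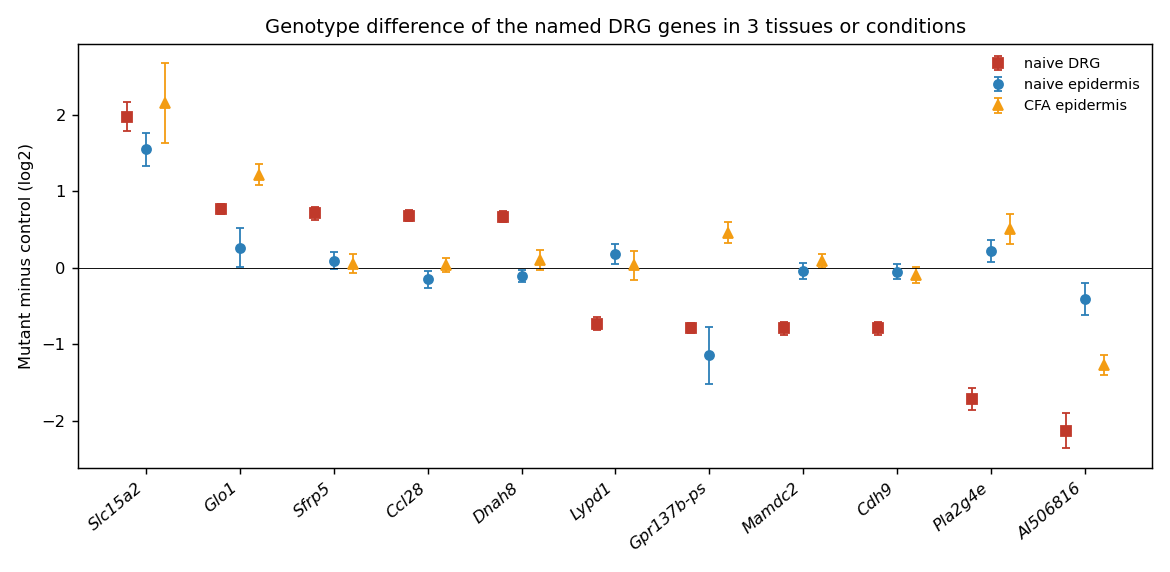
Difference between mutant and control (y axis, log2, whiskers are SE, n = 3 per genotype) of the 11 named genes in naive DRG, naive epidermis and CFA epidermis. Slc15a2 lies above 0 in all of them, Glo1 lies higher in CFA than in naive epidermis, and Pla2g4e lies below 0 in DRG alone.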

How the data were processed

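DRG RNA was measured on 6 Mouse Gene 1.0 ST arrays, 3 per genotype. The authors deposited log2 signals after RMA in Partek, and the software version and genome build are not given in the sources used here. Of 35556 probe sets, 23410 were paired with at least 1 gene, and 21789 with exactly 1, and only the latter name a gene. Genotypes were compared with limma 3.58.1 in R 4.3.3 (lmFit, eBayes, two-sided) over the 6 DRG arrays, with Benjamini-Hochberg adjustment over all 23410 and a threshold of 0.05. DRG was tested against naive epidermis in a joint fit of both. Named genes were those called, up to 15 per direction at 2-fold with an unadjusted p under 0.05, genes the study names from DRG, the leading members of each of 43 lists, neighbours of called genes, and genes of the test against epidermis at 1.5-fold. Each list used the brightest probe set of a gene. Members and lists were chosen with earlier results of these data known. The code was tested on simulated data. The number of arrays limits the precision. Alternatives covered normalization, filters, thresholds, moderation, ANOVA, array weights, a replicate block and left-out arrays.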

Additional observations from a re-analysis of the deposited data

Results flagged for a closer look

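The genotype difference of Pla2g4e was -1.72 in DRG and 0.22 ± 0.14 in naive epidermis. In naive epidermis the genotypes overlapped and the gene did not pass (limma adjusted p = 0.66), so the sign there is not settled. The difference between the tissues was -1.93 on the log2 scale. That of Dnah8, DRG minus naive epidermis, was fitted at 0.78, but its control signal in DRG was below background on all 3 arrays, so that this value rests on undetected control signal and is no measured size. Both passed limma's test of the difference between tissues.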

How the results depend on the processing

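Counts of probe sets called higher and lower were 6 and 11. They became 2 and 5 over all probe sets of the table, 11 and 18 with trend and robust moderation, 1 and 0 with an ordinary ANOVA, 22 and 39 with array weights, 19 and 30 at an adjusted p under 0.1, and 1 and 6 at 2-fold with an adjusted p under 0.05. At 2-fold with an unadjusted p under 0.05, 19 were lower, and among probe sets with exactly 1 gene 6 were lower. Without control 3 and mutant 1 they were 2 and 0. Leaving out 1 array gave 2 to 140 higher and 6 to 63 lower, the top of each range without control replicate 1. Deviations of same-numbered arrays from their group means had correlations of 0.18, -0.05 and 0.15, and those of the other pairs ran from -0.27 to 0.17. Since each group mean is taken over 3 arrays, these values cannot settle whether the numbers pair the arrays. With the replicate block the counts were 15 and 36. The test of DRG minus naive epidermis called 10 signed differences above 0 and 3 below, several of them in genes whose difference lay in epidermis, 22 and 7 with trend and robust moderation, and 2 to 37 and 1 to 29 with 1 array left out. Small differences changed sign. Stoml3, above background on no DRG array, ran from -0.069 to 0.039 with 1 array left out and was 0.046 without control 3 and mutant 1. One Piezo1 probe set ran from -0.039 to 0.10, and another from -0.19 to 0.0022, with 0.039 without control 3 and mutant 1. The causes were not tested.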
